A study of Mus musculus with 94 samples.

Results

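RTS0070220 is a single probe of the Mouse Whole Transcriptome Atlas, the panel that was hybridised to fixed mouse kidney sections for digital spatial profiling. It was chosen by its share of the counts, as the probe that held the largest mean share of the 20175 probes listed in the 94 deposited segments, so its level and its rank are given here as a description, with no test. The differences of its share between compartments, regions and groups were not used to choose it and were tested. The files list probes by identifier only, so neither the gene behind RTS0070220 nor its sequence was analysed here, and the macrophage and tubular labels could not be set against marker genes.

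The segments came from male C57BL/6 mice, and from 14 kidney sections in 7 groups of 2. The control group was kidney without surgery, from the contralateral side or from healthy mice. The other 6 groups had ischaemia-reperfusion injury of 1 kidney, made by clamping the renal pedicle, and were given the vehicle DMSO or entospletinib, an inhibitor of the spleen tyrosine kinase SYK, with kidneys taken on day 1, day 7 or day 14. In each section regions of interest were picked in cortex and medulla away from glomeruli, and each region was split by fluorescent stains into a segment of IBA1-positive macrophages and a segment of tubular cells positive for pan-cytokeratin with or without CD10. There were 46 macrophage segments and 48 tubular segments, of which 58 lay in cortex and 36 in medulla. Segments of a section share their tissue, so the section was taken as the replicate. The labels do not say in words that each section came from its own mouse, so the p-values measure only the spread between these sections.

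In this assay each probe carries a barcode that is cut off by ultraviolet light inside the drawn segment and then sequenced, and the reads of a barcode are reduced to unique molecules. A count is therefore 1 released barcode, and the share of a probe is a part of a fixed whole, which gets smaller when other probes take more of it. Tubular epithelium makes up most of the kidney's mass and is the part that dies and regrows after ischaemia, while IBA1-positive macrophages lie between the tubules, clear debris and take part in both inflammation and repair. SYK passes on signals from Fc receptors and C-type lectin receptors in such myeloid cells.

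Depth differed widely between the compartments. Tubular segments held from 77621 to 11699181 counts and macrophage segments from 16693 to 947255, and the section sums ran from 9404235 to 25729550 in tubules and from 117693 to 2773456 in macrophages. All 94 libraries carried the same plate in their headers, and sequencing saturation lay between 66.9% and 81.0%. The Wilson 95% interval of the share was 4.14 to 4.77% in the shallowest segment, control macrophages with 742 counts of the probe, and 2.45 to 2.47% in a tubular segment with 220499 counts of it. These intervals cover counting error only.

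RTS0070220 held a mean of 3.41% of the counts of a segment (SD 0.75, n = 94 segments). The lowest share was 2.10% (Wilson 95% interval 2.00 to 2.2%), in a shallow cortical tubular segment of entospletinib day 14, and the highest was 5.74% (interval 5.71 to 5.77%), in a cortical tubular segment of the control group. The range over all segments was thus 2.74-fold, and no segment lacked the probe. In the typical segment it was counted 1317 times as often as the median probe, with a range over segments from 541 to 3299 times. The lowest ratio came from a macrophage segment of entospletinib day 7 whose median probe had 1 count. In the shallowest control macrophage segment the median probe had 0 counts, so no ratio was taken there. The 10 highest other probes of a segment together held a median of 5.99% of the counts.

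RTS0070220 ranked first among all probes in 80 of the 94 segments, second in 13 and at rank 3 in 1. All 14 segments in which another probe stood higher belonged to the entospletinib groups of day 7 and day 14, 6 of 12 segments on day 7 and 8 of 17 on day 14. Most of these day 7 segments came from replicate 1, and replicate 2 gave only the medullary tubular segment of region 013. On day 14 they came from both replicates. The probe ranked first in each of the 12 control segments, the 40 vehicle segments and the 13 segments of entospletinib day 1. The plot of RTS0070220 beside the highest other probe shows these 14 segments below the line of equal shares. In 10 of the 14 the leading probe was RTS0080792, in 3 it was RTS0080791 and in 1 it was RTS0068460, which was named after its values were seen.

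**Figure D1:**
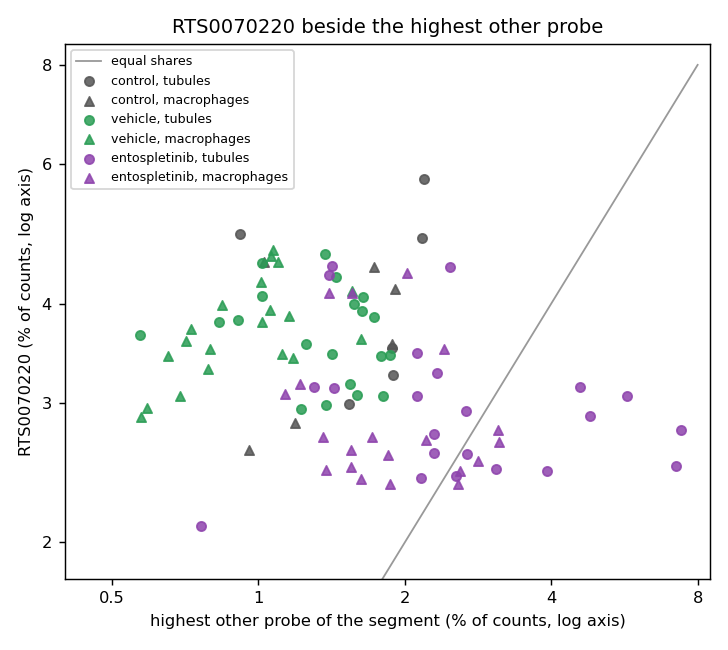
Each point is 1 of 94 segments, with the share of the highest other probe on the x axis and the share of RTS0070220 on the y axis, both in percent of the segment's counts on log axes. The 14 segments below the grey line of equal shares are all entospletinib segments of day 7 or day 14. The highest other probe reaches 7.40% there, while RTS0070220 lies between 2.37% and 3.14%.

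The change of rank came with both quantities, a lower share of RTS0070220 and a higher share of the leading probe. The median ratio of RTS0070220 to the highest other probe was 2.23 over all segments, and it ran from 0.347 to 6.4. The lowest ratio came from a medullary tubular segment of entospletinib day 14, in which RTS0080792 held 7.21% of the counts and RTS0070220 held 2.50%. In the shares of whole sections, RTS0070220 ranked first in all 14 macrophage sums and in 12 of 14 tubular sums, and second behind RTS0080792 in both tubular sums of entospletinib day 14.

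The section sums give the level in each group. In control tubules the probe held 5.09% in replicate 1 and 3.23% in replicate 2, the widest gap between the sections of a group (mean 4.16% ± 1.31, SD, n = 2). In control macrophages it held 4.45% and 3.1% (mean 3.78% ± 0.954, SD, n = 2). The control sections therefore spanned most of the range of the study by themselves, and in both compartments replicate 1 was the higher.

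After injury with vehicle, the probe held 4.19% and 3.73% in tubules and 4.45% and 3.80% in macrophages on day 1. On day 7 it held 3.00% and 3.64% in tubules and 2.97% and 3.80% in macrophages. On day 14 the values were 3.39% and 4.00% in tubules and 3.41% and 4.07% in macrophages. On day 1 and day 14 the vehicle values lay between the 2 control sections of their compartment, except that 4.453% in macrophages on day 1 stood just above the 4.452% of control. On day 7 the lower vehicle section lay below both control sections in each compartment.

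With entospletinib, the probe held 3.23% and 4.43% in tubules and 3.27% and 4.19% in macrophages on day 1. On day 7 it held 2.47% and 3.04% in tubules and 2.51% and 2.63% in macrophages. On day 14 it held 2.83% and 2.56% in tubules and 2.68% and 2.49% in macrophages. These day 7 and day 14 sections gave the 4 lowest macrophage shares of all 14 sections, and the 3 lowest tubular shares were also among them.

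**Figure D2:**
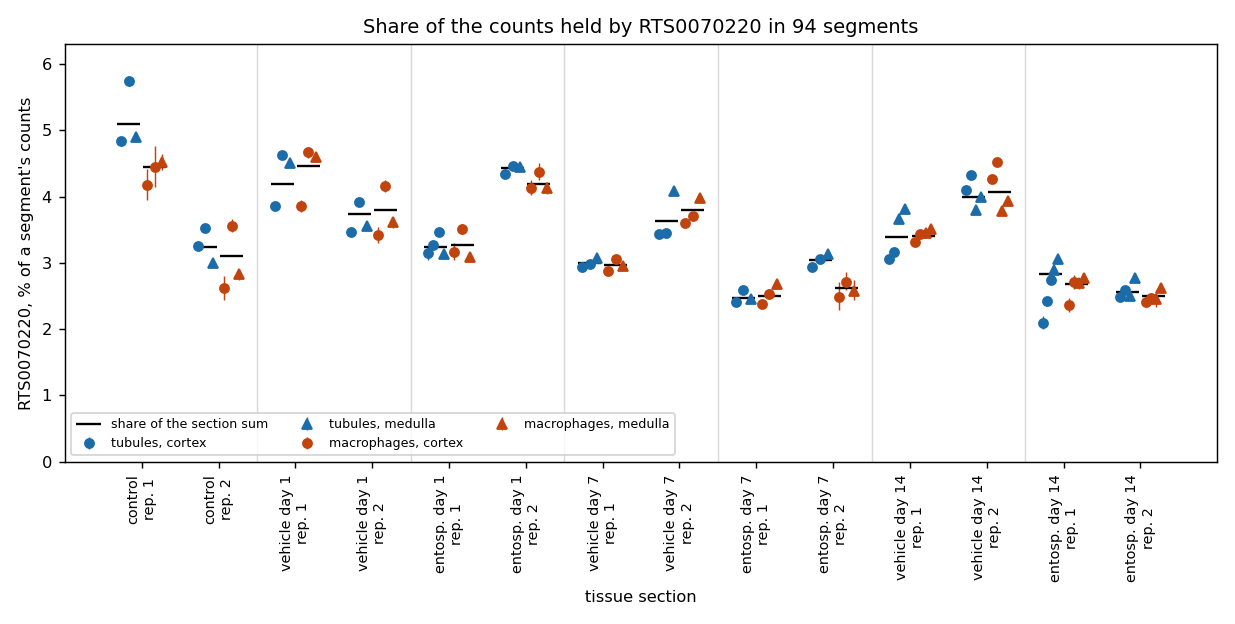
The share of RTS0070220 in percent of a segment's counts (y axis) for 94 segments grouped by the 14 sections (x axis), in blue for tubules and in orange for macrophages, with circles for cortex and triangles for medulla; bars on points are Wilson 95% intervals and black lines the share of the section sum. The points of a section lie close to each other in both colours, and the entospletinib sections of day 7 and day 14 lie between 2.10% and 3.14%.

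In order of the group means, tubules ran from control (4.16%) through vehicle day 1 (3.96%), entospletinib day 1 (3.83%), vehicle day 14 (3.70%), vehicle day 7 (3.32%) and entospletinib day 7 (2.76%) to entospletinib day 14 (2.70%). Each of the 6 pairs of neighbours in that order had overlapping sections. In macrophages the order was vehicle day 1 (4.13%), control (3.78%), vehicle day 14 (3.74%), entospletinib day 1 (3.73%), vehicle day 7 (3.38%), entospletinib day 14 (2.59%) and entospletinib day 7 (2.57%). There, 5 of 6 pairs of neighbours overlapped, and the sections of vehicle day 7 and entospletinib day 14 did not. With 2 sections a group, an exact test between 2 groups cannot go below p = 0.333.

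Within a section the 2 compartments took almost the same share. The absolute difference between the macrophage sum and the tubular sum had a median of 0.1 percentage points over 14 sections, and ranged from 0.0182 in vehicle day 14 replicate 1 to 0.641 in control replicate 1. By contrast, the 2 sections of a group differed by a median of 0.604 percentage points in tubules and 0.654 in macrophages. Macrophages were the higher in 7 of 14 sections. The mean difference, macrophages minus tubules, was -0.0734 percentage points (SD 0.235, n = 14, exact two-sided sign-flip test over sections p = 0.282, adjusted over the 5 share tests p = 0.469), which was smaller than its spread. In medullary regions alone the mean difference was -0.130 percentage points, with macrophages higher in 3 of 14 sections and an exact p of 0.0308 that was not adjusted. Leaving out control replicate 1 moved the mean over both regions to -0.0298 percentage points.

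The same comparison in single regions of interest used the 46 pairs of segments with a shared region label. The macrophage segment was higher in 17 pairs and lower in 29, with a median difference of -0.0572 percentage points and a range from -1.30 to 0.364. The upper end used a tubular segment of 125254 counts at 3.14%, and its deeper twin 007a, at 3.27%, was not paired. Nor was 023a of entospletinib day 14, at 2.43%. The macrophage segment of region 023 held 2.37%, and its pair with the shallow twin (2.10%) counted as higher. The Wilson intervals of the pair overlapped in 14 of 46. The pair with the largest difference was a control cortical region, where macrophages held 4.44% in 16693 counts and tubules 5.74% in 2356385 counts.

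In the count model, edgeR's quasi-likelihood test with the section as a block, the log2 fold change of RTS0070220 in macrophages against tubules was -0.12 (SE 0.0914, adjusted p = 0.378), in a comparison that called 25.7% of all 20175 probes. With the other scalings it was -0.03 per total count of the other probes, -0.07 with TMM and -0.06 in DESeq2. The probe was thus not among the calls in the comparison with the largest share of calls. Over the 1257 probes with a mean of at least 100 CPM (counts scaled to a common total without RTS0070220) in both compartments, the absolute log2 ratio of the mean macrophage share to the mean tubular share had a median of 0.27, against 0.03 for RTS0070220, and 1170 of the 1257 were at or above it.

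Sections that were high in tubules were high in macrophages. Across the 14 sections, the macrophage share and the tubular share had Pearson's r = 0.949 (permutation p = 1e-05) and Spearman's rho = 0.965 (permutation p = 1e-05), which is the smallest p the 100000 permutations can give, with p = 7e-05 after Benjamini-Hochberg adjustment over 7 relations computed. Without the 2 sections farthest from the median tubular share, r was 0.976. It was 0.953 over the 7 sections of replicate 1 and 0.959 over the 7 of replicate 2, so the relation held within both. After each section was set against the mean of its group, r was 0.958, and in 7 of 7 groups the same section was the higher in both compartments. The 2 deviations of a group mirror each other, so this r rests on 7 values and not on 14. This also holds for the other values of r against the group means below. The plot of the 2 compartments shows the 14 sections along the line of equal shares.

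**Figure D3:**
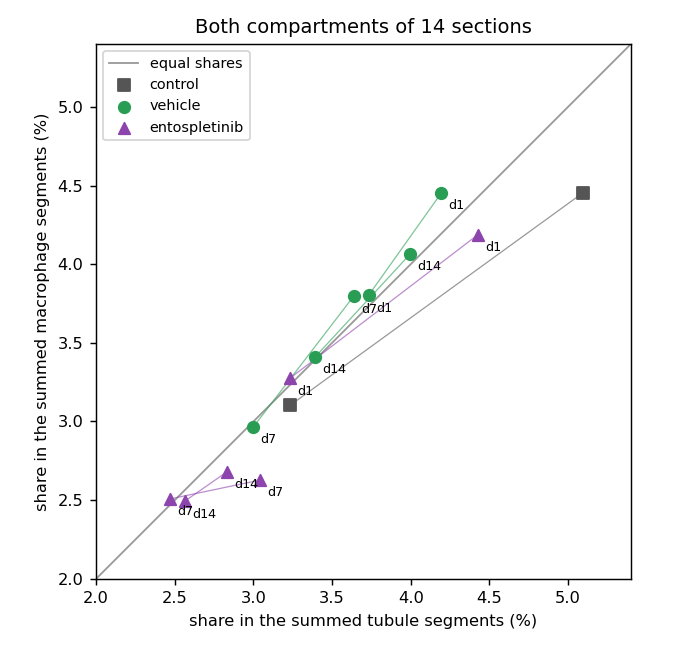
Each point is 1 of 14 sections, with the share of RTS0070220 in its summed tubular segments on the x axis and in its summed macrophage segments on the y axis, both in percent; lines join the 2 sections of a group and labels give the day. The sections lie along the grey line of equal shares, and all 7 joining lines slope upward.

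The 2 shares of a point come from the same section, regions of interest and plate, and the part of any of these in the relation was not tested. The same correlation between compartments had a median of 0.76 over the 1257 abundant probes, of which 27, RTS0070220 included, reached its value. Over all 19453 probes with a mean of at least 10 CPM in both compartments the median was 0.38, where low counts enter, and 52 reached it. RTS0080791 and RTS0080792, the probes with the next highest mean share, had r = 0.653 and r = 0.896.

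Cortex and medulla also took similar shares. Per section, medulla minus cortex had a mean of 0.0535 percentage points in tubules (SD 0.344, n = 14, higher in 8 of 14 sections, exact sign-flip p = 0.565, adjusted p = 0.691) and -0.0317 percentage points in macrophages (SD 0.295, n = 14, higher in 7 of 14, exact sign-flip p = 0.691, adjusted p = 0.691). The differences of single sections ran from -0.409 to 0.638 percentage points in tubules and from -0.540 to 0.319 in macrophages. The tubular mean was 0.00855 without vehicle day 7 replicate 2 and 0.0891 without control replicate 1. In edgeR with the section as a block, the log2 fold change of medulla against cortex was 0.01 in tubules (SE 0.155, adjusted p = 0.987), where 9.72% of the probes tested were called. In macrophages it was 0.00394 (SE 0.0682, adjusted p = 1.000), where 7.28% were called.

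Taking all 94 segments, the variation of the log2 share of RTS0070220 was split, as a description, into 61.7% between groups, 27.0% between the 2 sections of a group and 11.3% within sections. The last part holds all differences between cortex and medulla, between compartments and between neighbouring regions. Over the 1257 abundant probes the median within-section part was 59.2%, and 1 of them had a smaller one than RTS0070220. Counting error is least for the highest probes, but among the 20 probes with the highest mean share the median was 40.3% and none of the other 19 was below it. RTS0080791 had 67.6% within sections and RTS0080792 had 38.1%. For the abundant probes the medians of the other parts were 30.5% between groups and 7.60% between the 2 sections of a group. With 7 groups of 2, some of the spread between sections falls between groups even where no group effect exists. The 61.7% is therefore not a test of such an effect.

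**Figure D4:**
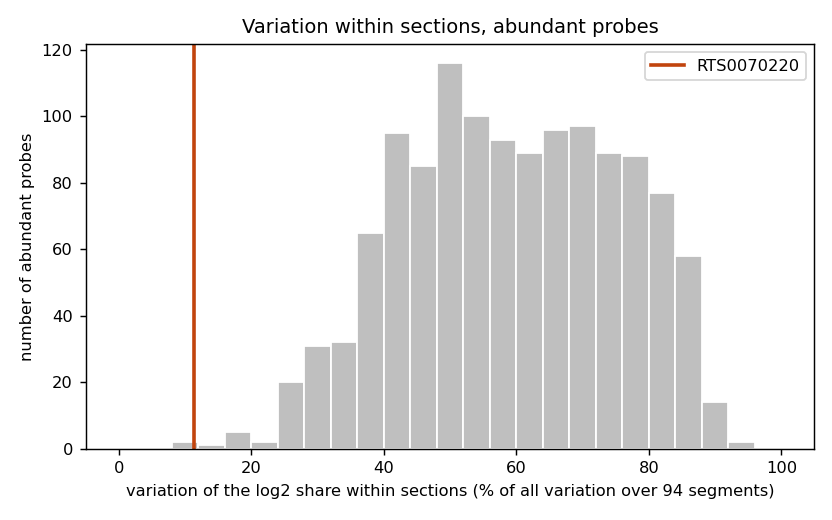
The number of abundant probes (y axis, 1257 in all) by the part of the variation of their log2 share over 94 segments that lies within sections (x axis, percent). RTS0070220, the orange line at 11.3%, lies at the lower edge, and the median probe is at 59.2%.

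The standard deviation of the share over the segments of a section, both compartments and regions together, had a median of 0.264 percentage points. It ran from 0.0723 in vehicle day 7 replicate 1, whose 6 segments lay between 2.88% and 3.07%, to 0.545 in control replicate 1, whose 6 segments lay between 4.18% and 5.74%. The standard deviation of the 14 section means, which holds the differences between groups as well, was 0.732 percentage points. The groups were not alike in this. The 2 sections of control differed by 1.86 percentage points in tubules, and macrophages minus tubules was -0.641 and -0.131 in them. The macrophage sums of entospletinib day 7 differed by only 0.121 between sections, and macrophages minus tubules was -0.417 in its replicate 2.

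The comparison of vehicle with control asks how the probe stood after injury with vehicle. The labels name no group with surgery or vehicle alone, so these cannot be told apart from the injury. In tubules its log2 fold change was -0.18 on day 1 (SE 0.389, edgeR adjusted p = 1.000, 0.173% of probes called), -0.51 on day 7 (SE 0.389, adjusted p = 0.796, 1.71% called) and -0.43 on day 14 (SE 0.389, adjusted p = 0.383, 17.2% called). In macrophages it was 0.21 on day 1 (SE 0.240, adjusted p = 0.869, 0.717% called), -0.14 on day 7 (SE 0.240, adjusted p = 0.908, 3.71% called) and 0.04 on day 14 (SE 0.240, adjusted p = 0.961, 7.47% called). RTS0070220 passed in none of these 6 comparisons, which share their control sections. The control sections themselves differed by 1.86 percentage points in tubules and 1.35 in macrophages, and they decided the sign. Without control replicate 1 the tubular values on days 1, 7 and 14 were 0.33, 0.0016 and 0.08, and without control replicate 2 they were -0.56, -0.88 and -0.80. In macrophages they were 0.57, 0.20 and 0.39 without replicate 1, and -0.15, -0.52 and -0.32 without replicate 2. The calls over all probes in tubules on day 14 numbered 3476, and 9987 without vehicle replicate 1 and 1032 without vehicle replicate 2.

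The comparison of entospletinib with vehicle on the same day asks how SYK inhibition bore on the probe after injury. In tubules the log2 fold change was -0.01 on day 1 (SE 0.388, edgeR adjusted p = 1.000, 0% of probes called), -0.12 on day 7 (SE 0.389, adjusted p = 0.908, 0.872% called) and -0.18 on day 14 (SE 0.389, adjusted p = 0.707, 19.2% called). In macrophages it was -0.13 on day 1 (SE 0.240, adjusted p = 0.997, 0% called), -0.36 on day 7 (SE 0.240, adjusted p = 0.562, 5.38% called) and -0.54 on day 14 (SE 0.240, unadjusted p = 0.0295, adjusted p = 0.261, 5.28% called). All 6 values were below 0 and none passed the test. With the other scalings the tubular values were farther below 0 on day 7, at -0.28 per total count of the other probes, -0.21 with TMM and -0.21 in DESeq2, and on day 14, at -0.47, -0.45 and -0.49. Leaving out 1 section moved the values. On day 14 in macrophages they ran from -0.73 to -0.40. On day 1 in tubules the value was 0.24 without entospletinib replicate 1 and -0.32 without replicate 2. Vehicle sections moved the values most on day 14 in tubules and on day 7 in macrophages. On day 14 in tubules it was -0.31 without vehicle replicate 1 and -0.05 without replicate 2, and on day 7 in macrophages -0.56 and -0.16. The share of probes called on day 14 in tubules rested on them too, with 10867 calls without vehicle replicate 1 and 942 without replicate 2, against 3878. The median of all probes in that comparison was 0.33 under the upper quartile used here and 0.05 per total count. In vehicle against control on day 14 that median was -0.30 and -0.09, and RTS0070220 stood at -0.43 and -0.18.

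**Figure D5:**
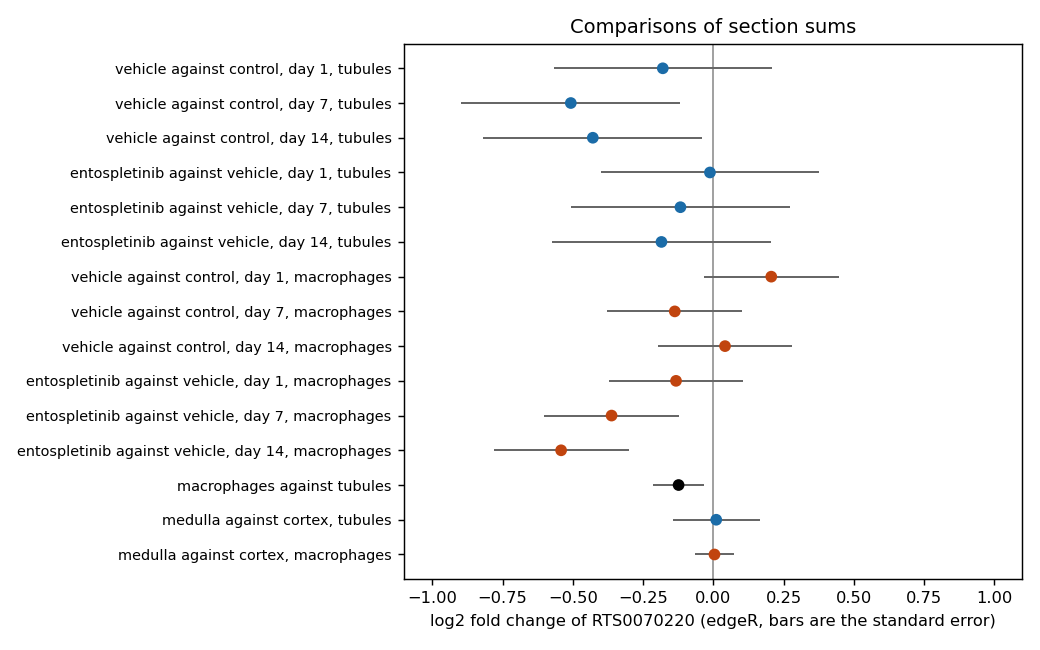
Log2 fold change of RTS0070220 (x axis) from edgeR in 15 comparisons of section sums (y axis), with bars of 1 standard error, in blue for tubules, orange for macrophages and black for the comparison of the 2. The 6 entospletinib against vehicle values lie between -0.54 and -0.01, and the compartment and region values lie between -0.12 and 0.01.

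Of all 19 comparisons in the count model, edgeR called RTS0070220 in 0 at an adjusted p under 0.05 and in 1 at an unadjusted p under 0.05, and DESeq2 gave the same counts, 0 and 1. The change of the entospletinib effect between days was among them. Day 7 against day 1 gave -0.11 in tubules (SE 0.549, adjusted p = 1.00, 0.104% of probes called) and -0.23 in macrophages (SE 0.339, adjusted p = 1.000, 0.0324% called). Day 14 against day 1 gave -0.17 in tubules (SE 0.549, adjusted p = 0.832, 2.83% called) and -0.41 in macrophages (SE 0.339, adjusted p = 0.99, 0.00539% called). The tubular value of day 14 against day 1 depended on the scaling, at -0.42 per total count, -0.44 with TMM and -0.51 in DESeq2. None of these passed, and a p that misses the threshold does not show that the effect was the same on all days.

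As a share of the counts, over all 3 days and with the labels exchanged within each day, entospletinib minus vehicle averaged -0.787 percentage points in macrophages (12 sections, exact two-sided permutation p = 0.0278, adjusted over the 5 share tests p = 0.139). The smallest p that these arrangements can give is 0.00926. The difference was -0.397 on day 1, -0.814 on day 7 and -1.15 on day 14, so all 3 days lay on the same side, and on day 7 and day 14 the sections of the 2 treatments did not overlap. The p did not pass after adjustment, and without vehicle day 1 replicate 1 or without entospletinib day 1 replicate 1 it was 0.0648 and 0.0741.

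In tubules the same average was -0.565 percentage points (12 sections, exact permutation p = 0.0926, adjusted p = 0.231). The difference was -0.135 on day 1, -0.562 on day 7 and -0.997 on day 14, and only on day 14 did the sections not overlap. Without entospletinib day 1 replicate 2 the average was -0.764, and without replicate 1 of that group it was -0.365. Because macrophages and tubules of a section had nearly equal shares, the 2 compartments are not independent views of this difference. With RTS0080791 and RTS0080792 left out of the total, an alternative chosen after the data were seen, the difference was -0.739 percentage points in macrophages and -0.504 in tubules.

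Depth moved with the groups in tubules. The tubular sums of entospletinib were deeper than those of vehicle on all 3 days. They held 16724169 and 25154451 counts against 9968668 and 10724081 on day 1. On day 7 they held 19093450 and 20230803 against 11728953 and 14523138. On day 14 they held 23341267 and 25729550 against 10976047 and 17113251. In macrophages the order was the opposite on day 7 and day 14, and on day 1 the sections overlapped. On day 14 the macrophage sums held 538072 and 591370 counts with entospletinib and 2773456 and 2024256 with vehicle. The part of depth in the difference between treatments was not tested. Across the 14 sections the tubular share and log10 total counts had r = -0.491 (permutation p = 0.0739) and rho = -0.538 (permutation p = 0.0488), with adjusted p of 0.129 and 0.0855 over the 7 relations. Without the 2 sections farthest from the median depth r was -0.169, and it was -0.771 over replicate 1 and -0.211 over replicate 2, so the relation rests on few sections. After each section was set against the mean of its group, r was -0.124. In macrophages r was 0.101 (permutation p = 0.729, adjusted p = 0.729) and rho was 0.0505 (permutation p = 0.866, adjusted p = 0.866), with r = -0.0752 without the 2 farthest sections, -0.348 over replicate 1 and 0.560 over replicate 2, and -0.212 against the group means.

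The share was also set against the evenness of the library, taken as the share held together by the 10087 probes with the lowest mean shares. In tubules r was -0.558 (permutation p = 0.0378, adjusted p = 0.0881) and rho -0.574 (permutation p = 0.0357, adjusted p = 0.0855), with r = -0.293 without the 2 farthest sections, -0.929 over replicate 1, -0.0857 over replicate 2 and -0.773 against the group means. In macrophages r was -0.617 (permutation p = 0.0206, adjusted p = 0.0720) and rho -0.543 (permutation p = 0.0486, adjusted p = 0.0855), with r = -0.575 without the 2 farthest, -0.833 over replicate 1, -0.570 over replicate 2 and -0.651 against the group means. Sequencing saturation gave r = 0.427 in tubules (permutation p = 0.129, adjusted p = 0.180) and rho = 0.415 (permutation p = 0.141, adjusted p = 0.197), with r = 0.422 without the 2 farthest sections, 0.504 over replicate 1, 0.313 over replicate 2 and 0.659 against the group means, where the 2 sections had the same order in 6 of 7 groups. In macrophages it gave r = -0.385 (permutation p = 0.189, adjusted p = 0.220) and rho = -0.288 (permutation p = 0.318, adjusted p = 0.371), with r = -0.161 without the 2 farthest, -0.125 over replicate 1, -0.605 over replicate 2 and -0.571 against the group means. None of these 6 relations to depth, evenness and saturation passed after adjustment over the 14 sections, and the values against the group means were not tested.

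The probes with the next highest mean share spanned a wider range. RTS0080791 held a mean of 1.08% over the segments and ran from 0.0183% to 2.83%, and RTS0080792 held a mean of 0.981% and ran from no counts to 7.40%. In tubular sums RTS0080792 held 0.0130% and 0.992% in vehicle day 14, against 3.29% and 5.09% in entospletinib day 14. The section shares of RTS0070220 in tubules spanned 2.06-fold from lowest to highest, from 2.47% to 5.09%, while those of RTS0080791 ran from 0.347% to 2.14%. A narrow span was not particular to RTS0070220. RTS0079340, which ranks 5 by mean share and was named after its values were seen, ran from 0.455% to 0.797% in tubules and had r = 0.929 between compartments. The coefficient of variation of RTS0070220 over the tubular sums was 21.3%, near the median of 22.5% over the abundant probes and above the median of 17.7% over all 19453. In macrophages it was 20.9%, against 27.5% and 33.9%.

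By Spearman's rho of CPM over the 28 section-by-compartment sums, the probes most like RTS0070220 were RTS0064484, with rho = 0.875, and RTS0064383, with rho = 0.863. Over tubular sums alone rho was 0.881 and 0.912, and over macrophage sums alone 0.886 and 0.829. Both were far rarer, with mean shares of 0.00850% and 0.00532% of the counts of a segment, and 14 of the 19452 probes compared had a rho of at least 0.8. The median rho over these probes was -0.15, and 30.7% were above 0. The 28 sums come from 14 sections, so these values are a description.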

How the data were processed

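The authors ran their GeoMx sequencing reads through the GeoMx NGS Pipeline, whose version differs between the labels and the file headers, and deposited for each of 94 segments the deduplicated counts of every probe with at least 1 count, from 8231 to 20175 probes a file. The counts column carries no name in any of them, and all 94 were read in the same way. In 13 a check of the column's unit gave no answer, although they hold whole counts like the others. The study dropped probes, segments with very low signal and genes, and a further 2 samples as outliers, before its own tests. The deposited counts hold none of those steps, and no segment was left out here.

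The member and all tests were chosen with earlier results of these data known. Named probes are RTS0070220, the 2 with the next highest mean share, and the 2 with the highest Spearman's rho to it (mean of at least 10 CPM, counts scaled to a common total in each compartment). Counts of a section were summed by compartment, and for region comparisons by region. Replicate numbers come from the prefix of the titles. The main test was edgeR 4.0.16 (R 4.3.3), quasi-likelihood with robust estimation, upper-quartile scaling and its default filter on low counts (minimum 10), on 14 sums per compartment with 1 shared estimate of the spread, and with the section as a block for compartments and regions. The standard error is the log2 fold change over the root of F. P-values were adjusted by Benjamini-Hochberg over all probes tested. The test was tested on simulated data. Unlike the real counts, these gave every probe the same spread and let no sections deviate together. Shares were tested by exact sign-flip or permutation tests over sections (Python 3.11.15, scipy). The split of the variation used log2(share + 5e-05%). DESeq2 1.42.0, TMM, total counts, no filter, single regions and left-out sections were alternatives.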

Additional observations from a re-analysis of the deposited data

How the results depend on the processing

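None of the 19 log2 fold changes of RTS0070220 passed the test under any alternative, and the lowest adjusted p was 0.160. Of 137 values under alternatives that kept all sections, 129 kept their sign. The other 8 were entospletinib against vehicle on day 1 in tubules at 0.068 in medullary regions alone and 0.025 with DESeq2, vehicle against control on day 14 in macrophages at -0.017 per total count and -0.019 with no filter, medulla against cortex in tubules at -0.012 with TMM and -0.015 with DESeq2, and in macrophages at -0.012 per total count and -0.0045 with no filter. With single-segment shares averaged, the share difference of medulla minus cortex in macrophages was 0.0075 percentage points. In medullary regions alone macrophages minus tubules was -0.130. The causes were not tested.

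Leaving out 1 section changed the sign of 33 of 134 log2 fold changes and let none pass. The lowest and highest values for vehicle against control in tubules were -0.56 and 0.33 (day 1), -0.88 and 0.0016 (day 7) and -0.80 and 0.080 (day 14), and in macrophages -0.15 and 0.57, -0.52 and 0.20, and -0.32 and 0.39. For entospletinib against vehicle they were -0.32 and 0.24 (day 1) and -0.38 and 0.10 (day 7) in tubules, and -0.34 and 0.039 (day 1) in macrophages. For the effect on day 7 against day 1 they were -0.36 and 0.20 in tubules and -0.42 and 0.0085 in macrophages, and on day 14 against day 1 -0.43 and 0.14 in tubules and -0.60 and -0.21 in macrophages. For medulla against cortex they were -0.011 and 0.027 in tubules and -0.037 and 0.018 in macrophages. An arm left with 1 section was assumed to vary like the others. Share differences ranged from -0.059 to 0.0074 percentage points for medulla minus cortex in macrophages, and for entospletinib minus vehicle from -0.764 to -0.365 in tubules (p from 0.0278 to 0.231) and from -0.939 to -0.635 in macrophages (p from 0.0185 to 0.0741).

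With the replicate number as a block (replicate block), entospletinib against vehicle on day 14 was -0.54 in macrophages (adjusted p = 0.240) and -0.18 in tubules (adjusted p = 0.737), and the block changed no call of the probe. Sections with the same number deviated together (r over 0.1) in 15 of 21 pairs of groups in tubules (r -0.55 to 0.72). In macrophages it was 7 of 21. The main test left this out. Leaving out 1 section moved the count of all probes called by more, for example to 58 from 998 for entospletinib in macrophages on day 7. With the block, tubules on day 14 had 5920 calls in place of 3476 for vehicle against control and 6740 in place of 3878 for entospletinib against vehicle. Macrophages had 261 in place of 133 for vehicle against control on day 1. With DESeq2 the tubular counts were 223 in place of 35 and 719 in place of 345 for vehicle on days 1 and 7, 5 in place of 0 and 445 in place of 176 for entospletinib on days 1 and 7, and 110 in place of 21 and 1897 in place of 570 for its effect on days 7 and 14 against day 1. In macrophages they were 656 in place of 998 and 544 in place of 979 for entospletinib on days 7 and 14, and 0 in place of 6 and 23 in place of 1 for its effect on days 7 and 14 against day 1.

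The mean share was 3.45% as section sums and 3.47% over the 81 segments with at least 100000 counts, a limit chosen after the data were seen, against 3.41% over all 94. With 2 sections a group, the standard errors of 0.39 in tubules and 0.24 in macrophages on the log2 scale limit what could be seen. The gene, its probe sequence and the negative probes were not analysed here.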
